A study of Mus musculus with 20 samples.

Results

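The cerebella of 10 male mice of 12 months were compared, 5 with the 304Q repeat in both alleles of Atxn3 (304Q/304Q) and 5 with wild-type alleles (WT/WT). They are 10 of the 20 mice of the series, whose other 10 are 2 months old and have the same 2 genotypes. All mice were on a C57BL/6 background (C57BL6/N in the labels), the cerebellum was kept in RNAlater, and polyA-enriched RNA was sequenced as 1 library per mouse. The 304Q allele was made with zinc-finger nucleases by exchange of the repeat in the endogenous gene, so that all cells that express Atxn3 carry it, and the 304Q/304Q mice descend from 1 line and were bred to homozygosity. Labels of the samples name ataxin-2 for the wild-type alleles and a CAG repeat, whereas the study's methods, followed here, name Atxn3 and a CAACAG repeat with interruptions. Of 29200 genes in the count table, 12039 had a mean of at least 50 counts over these 10 libraries and were tested.

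Spinocerebellar ataxia type 3 is a dominantly inherited disease in which a lengthened run of glutamines in ataxin-3, an enzyme that removes ubiquitin from proteins, leads to aggregates in neurons of the cerebellum, brainstem and basal ganglia. The cerebellar cortex holds a vast number of granule cells, whose parallel fibres excite the Purkinje cells, its only output neurons. Around them lie inhibitory interneurons, Bergmann glia (the astrocytes that ensheath Purkinje cell dendrites), oligodendrocytes of the white matter, microglia and vessels, and the RNA of all of them was read together. The mouse exon that held the replaced repeat is shown because it defines the groups. It is exon 10 of Atxn3 on the minus strand of GRCm38 (chr12:101926484-101926581, GENCODE M21 transcripts), with the 6 glutamine codons of the wild-type repeat in capitals.
Atxn3: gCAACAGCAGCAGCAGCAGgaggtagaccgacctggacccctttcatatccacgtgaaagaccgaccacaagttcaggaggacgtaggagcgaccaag

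Atxn3 itself (ENSMUSG00000021189, chromosome 12 from 101918901 to 101958246) was listed at 16.5, 14.6, 16.5, 14.2 and 16.4 CPM in WT/WT and 13.2, 15, 15, 15.5 and 12.7 CPM in 304Q/304Q mice, and the groups overlapped (log2 fold change −0.13, SE 0.12, adjusted p = 0.507). CPM is the usual count scaled for sequencing depth, here with TMM library sizes, and SE stands for standard error. The adjusted p comes here and below from the quasi-likelihood test in edgeR, after Benjamini-Hochberg adjustment across the 12039 genes. Library totals ran from 12765814 to 14305694 counts in WT/WT and from 11385380 to 13897750 in 304Q/304Q mice. Gabra6 of granule cells lay between 577 and 782 CPM in the 10 libraries, and the hindbrain gene Hoxb3 at no more than 0.141 CPM. Some libraries stood apart. The slope of log2 expression on GC content was −0.174 per 10% GC in WT/WT replicate 1, 0.021 to 0.0918 in the other WT/WT mice and −0.169 to −0.0626 in the 304Q/304Q mice, so that it moved with the genotype. Skeletal muscle genes summed to 241 CPM in 304Q/304Q replicate 5 and to 3.43 to 9.74 CPM elsewhere, and choroid plexus genes to at least 668 CPM in WT/WT replicates 1, 2 and 5 and 304Q/304Q replicates 1 and 3 and to at most 177 CPM in the other 5 mice. The part of these libraries in the results was not tested. Counts without WT/WT replicate 1 and 304Q/304Q replicate 5 are given for several of the groups of genes described.

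Genes were called DEGs where the adjusted p was 0.05 or less and the log2 fold change 0.5 or more in either direction. There were 372 of them (3.09% of the genes tested), 152 higher (1.26%) and 220 lower (1.83%) in 304Q/304Q mice. Most changes were modest in size: 61 DEGs, 19 higher and 42 lower, reached a log2 fold change of 1. The adjusted p alone was met by 1541 genes (12.8%), 640 higher and 901 lower. For 1090 genes every 304Q/304Q mouse lay on the same side of every WT/WT mouse (9.05%), and the same held for 268 of the 372 DEGs. A log2 fold change below 0 was found for 50.8% of the genes tested. These shares of all genes are the ones to set beside the counts of the gene lists below. Without WT/WT replicate 1 there were 534 DEGs, 272 higher and 262 lower, and without it and 304Q/304Q replicate 5 there were 643, 361 higher and 282 lower, so that the excess of lower over higher genes rested on 1 library.

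**Figure D1:**
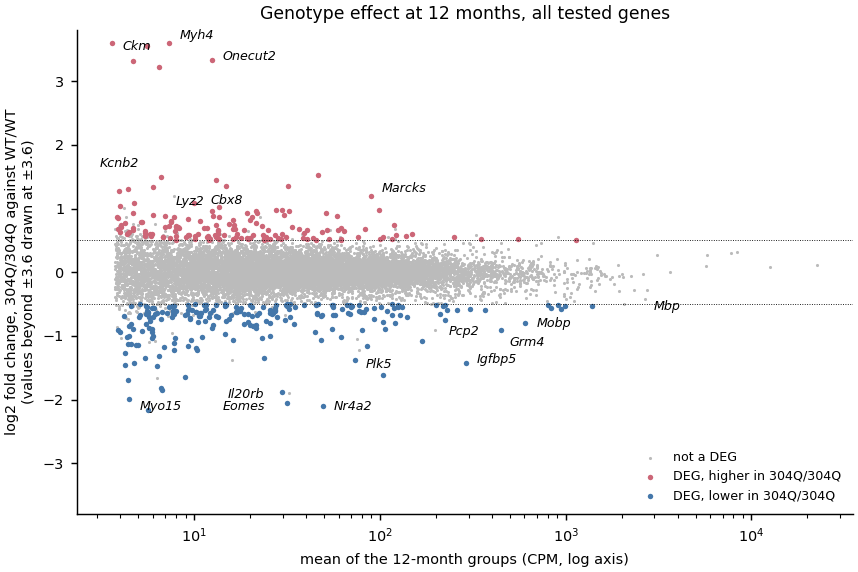
Log2 fold change (304Q/304Q over WT/WT, 12 months) against the mean level (CPM, log axis) of each tested gene; coloured points are the 152 higher and 220 lower DEGs, dotted lines mark ±0.5. Onecut2 stands highest of the genes that differ in all mice, while the muscle genes Myh4 and Ckm at the upper edge are high in 1 library only.

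The genes that rose included regulators of transcription and chromatin. Onecut2 measured 2.66, 2.79, 1.05, 2.05 and 2.66 CPM in the WT/WT mice and 18.5, 22.6, 20.1, 27.5 and 25.1 CPM in the 304Q/304Q mice. Onecut2 (ENSMUSG00000045991), a transcription factor with a cut domain and a homeodomain, thus had all 5 304Q/304Q mice far above the WT/WT mice (log2 fold change 3.34, SE 0.23, adjusted p = 9.88e-10). Cbx8 measured 13.3, 16.5, 14.5, 17.4 and 13.9 CPM in the WT/WT mice and 30.6, 24.5, 31.2, 28.5 and 28.9 CPM in the 304Q/304Q mice. Cbx8 (ENSMUSG00000025578, chromosome 11 from 119036305 to 119040969), a chromodomain protein of Polycomb repressive complex 1, rose without overlap between the groups (log2 fold change 0.93, SE 0.093, adjusted p = 2.67e-07). So did Bmi1, a partner of the ubiquitin ligase of the same complex (log2 fold change 0.69, SE 0.13, adjusted p = 0.000944), and Asxl3, a cofactor of the deubiquitinase that opposes it (log2 fold change 1.08, SE 0.21, adjusted p = 0.000944). In a list of 30 tested Polycomb group genes, which was drawn up after values of some of its members had been seen, 6 were higher DEGs and none was a lower DEG, and the list's median log2 fold change was 0.1, against 0.00 for all genes. Over all genes tested 1.26% were higher and 1.83% lower DEGs.

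Other Polycomb calls were weak. Rnf2, the ubiquitin ligase itself (0.52, adjusted p = 0.0141), was called in 11 of 22 other analyses of these counts (other scalings, filters and tools, a block, hidden factors called surrogate variables or GC content removed, or a library left out) and lost its call without WT/WT replicate 2, 3, 4 or 5 or 304Q/304Q replicate 2 or 4, with the GC trend removed and with surrogate variables (over all of them log2 fold change 0.31 to 0.71, adjusted p = 0.000521 to 0.0475). Cbx2, a chromodomain protein of the complex (0.56, adjusted p = 0.0441), overlapped between the groups, was called in 10 of 21 and lost its call without WT/WT replicate 1, 2, 3 or 5 or 304Q/304Q replicate 1, 4 or 5 (log2 fold change 0.45 to 0.84, adjusted p = 0.00369 to 0.126). Cbx8 and Bmi1 were called in all 22 other analyses and Asxl3 in all 21 that tested it. Without WT/WT replicate 1 and 304Q/304Q replicate 5 the Polycomb list held 6 higher DEGs. Rest, the repressor that holds neuronal genes silent in other cells, measured 6.43, 8.09, 5.34, 7.98 and 3.2 CPM in WT/WT and 10.6, 10.8, 10.2, 10.9 and 8.26 CPM in 304Q/304Q mice, with no overlap between the groups (log2 fold change 0.71, SE 0.19, adjusted p = 0.0173). Rest lost its call without WT/WT replicate 3 and in both analyses with surrogate variables, hidden factors estimated from the expression values themselves (log2 fold change 0.54 to 0.82, adjusted p = 0.00348 to 0.141).

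Some genes of ion channels and of the neuronal surface rose as well. Of 49 potassium channel genes tested, 3 were higher and 2 lower DEGs, against 1.26% and 1.83% of all genes tested. Kcnb2 measured 3.68, 2.58, 2.33, 4.17 and 4.69 CPM in the WT/WT mice and 11.9, 9.2, 8, 9.97 and 9.81 CPM in the 304Q/304Q mice. The values of Kcnb2, a voltage-gated channel of the delayed rectifier type, did not overlap between the groups (log2 fold change 1.49, SE 0.23, adjusted p = 9.83e-05). Kcnk2, a leak channel, had 14.4 ± 2.49 CPM in WT/WT and 25.4 ± 1.5 CPM in 304Q/304Q mice (mean ± SD, n = 5; log2 fold change 0.81, SE 0.12, adjusted p = 4.54e-05), and Kcnj3, an inward rectifier gated by G proteins, 97.9 ± 17.4 CPM in WT/WT and 147 ± 27.9 CPM in 304Q/304Q mice (log2 fold change 0.58, SE 0.14, adjusted p = 0.00706). The groups overlapped for Kcnj3, which fell short of the fold threshold with surrogate variables (log2 fold change 0.26 to 0.76, adjusted p = 0.000515 to 0.0288). Kcng4, a silent subunit that modifies other channels, fell (−0.58, adjusted p = 6.98e-07), as did Kcnip1, a calcium sensor bound to A-type channels (−0.53, adjusted p = 0.000113). Kcnip1 lost its call without WT/WT replicate 3 or 304Q/304Q replicate 3 (log2 fold change −0.57 to −0.46, adjusted p = 1.75e-07 to 0.000648). Of 31 calcium, sodium and HCN channel genes, Cacna1e, the pore of R-type calcium channels (log2 fold change 0.59, SE 0.1, adjusted p = 0.000301), and Cacna2d1, an accessory calcium channel subunit (log2 fold change 0.66, SE 0.12, adjusted p = 0.000454), were higher DEGs and none was lower. Both were without overlap, and Cacna2d1 lost its call with surrogate variables (log2 fold change 0.45 to 0.79, adjusted p = 9.3e-07 to 0.00248). The median over the potassium channels was −0.14, with 35 of 49 below 0, and −0.02 over the second list. Without WT/WT replicate 1 and 304Q/304Q replicate 5, 3 potassium channels were higher and 3 lower DEGs. The second list then held 3 higher DEGs and 1 lower.

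A few clustered protocadherins, adhesion proteins by which neurons tell their own processes from those of others, rose. In a list of 38 clustered protocadherins drawn up after values had been seen, 4 were higher DEGs (Pcdhb10 with 0.93, Pcdhb13 with 0.89, Pcdhb16 with 0.74 and Pcdhb11 with 0.65, the last not called without WT/WT replicate 1 and 304Q/304Q replicate 5 together), none was a lower DEG, 15 had a lower value and the median was 0.17. Over all genes tested 1.26% were higher DEGs and 50.8% had a lower value. Pcdhb16 lost its call with surrogate variables (log2 fold change 0.4 to 0.85, adjusted p = 0.000458 to 0.108). Without WT/WT replicate 1 and 304Q/304Q replicate 5 the list held 7 higher DEGs and none lower. Pcdhb10 had 2.03 to 3.83 CPM in WT/WT and 5.21 to 6.77 CPM in 304Q/304Q mice, with adjusted p = 0.00109. These genes resemble each other in sequence, and how reads that match several of them were counted is not given in the sources used here. Of the ligands and matrix proteins, Comp, a matrix protein of cartilage and tendon, measured 6.11, 6.83, 9.1, 6.35 and 3.75 CPM in WT/WT and 10.8, 15.7, 13.2, 12.9 and 15.7 CPM in 304Q/304Q mice (log2 fold change 1.08, SE 0.22, adjusted p = 0.00189), and Tnc, the matrix protein tenascin C, 19.2 ± 3.87 CPM in WT/WT and 30.6 ± 3.56 CPM in 304Q/304Q mice (mean ± SD, n = 5; log2 fold change 0.67, SE 0.13, adjusted p = 0.000957). Itgav, an integrin chain, overlapped between the groups and lost its call with surrogate variables (0.62, adjusted p = 0.0057; log2 fold change 0.38 to 0.78, adjusted p = 0.000331 to 0.0232), while Col27a1, a fibrillar collagen, fell (log2 fold change −0.76, SE 0.1, adjusted p = 1.99e-05). Of the 14 tested members of the list of matrix and integrin genes, 3 were higher and 1 lower DEGs, against 1.26% and 1.83% of all genes tested. The median was 0.15.

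The other large rises without overlap had varied functions. Marcks measured 82, 45, 43, 47.2 and 54.7 CPM in the WT/WT mice and 97.2, 145, 145, 143 and 94.3 CPM in the 304Q/304Q mice. Marcks, a substrate of protein kinase C that binds actin, was thus lowest of the 304Q/304Q mice in replicates 1 and 5 and highest of the WT/WT mice in replicate 1 (log2 fold change 1.2, SE 0.21, adjusted p = 0.000293). Necab1 measured 21.2, 20.8, 16.1, 15.2 and 16.2 CPM in the WT/WT mice and 39.7, 48.2, 40.8, 58.2 and 42.8 CPM in the 304Q/304Q mice. For Necab1, a neuronal calcium-binding protein, the lowest 304Q/304Q mouse lay well above the highest WT/WT mouse (log2 fold change 1.36, SE 0.18, adjusted p = 1.04e-05). The long noncoding RNA Miat had 6.98 ± 1.12 CPM in WT/WT and 19.1 ± 3.93 CPM in 304Q/304Q mice (mean ± SD, n = 5; log2 fold change 1.45, SE 0.21, adjusted p = 3.26e-05), and Igsf10, of the immunoglobulin superfamily, 8.33 ± 1.52 CPM in WT/WT and 21.3 ± 4.91 CPM in 304Q/304Q mice (log2 fold change 1.36, SE 0.16, adjusted p = 3.93e-06). A830018L16Rik (1.33, adjusted p = 8.7e-05), Syt16, of the synaptotagmin family (1.3, adjusted p = 0.00014), and Muc15, a membrane mucin (1.28, adjusted p = 8.1e-06), were expressed at 2.16 to 4.7, 1.41 to 3.53 and 1.95 to 3.21 CPM in WT/WT mice, and each was called in all 21 other analyses that tested it. Miat, Igsf10, Necab1, Syt16, Muc15, Kcnk2, Kcnj3, Tnc and Itgav lie over annotated genes of the opposite strand, and whether the counting used the strand is not given in the sources used here.

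**Figure D2:**
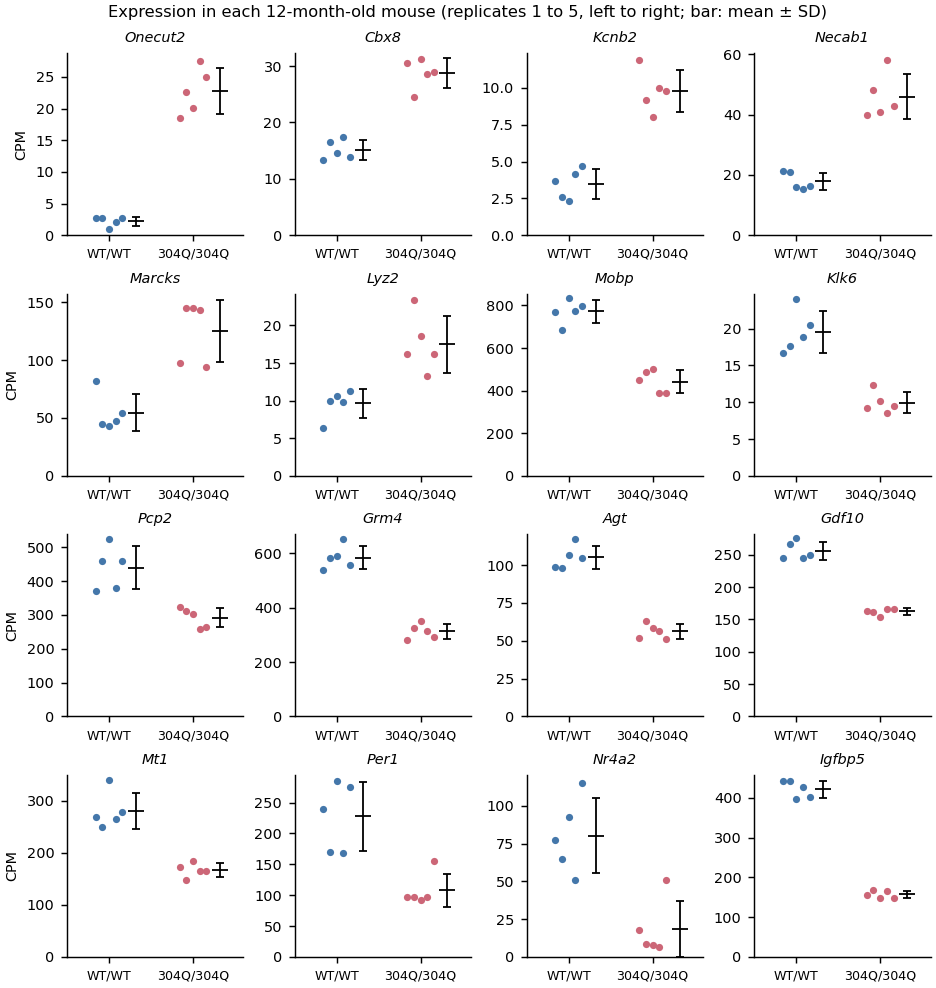
CPM of 16 DEGs in each 12-month-old mouse; points are replicates 1 to 5 from left to right, and the mark beside them is the mean ± SD (n = 5). For Necab1 the 304Q/304Q mice lie between 39.7 and 58.2 CPM and the WT/WT mice between 15.2 and 21.2 CPM, and none of the 16 genes shows overlap between the genotypes.

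Immune genes changed in a small and uneven way. Of 14 tested genes of activated microglia, 3 were higher DEGs and none was lower, against 1.26% and 1.83% of all genes tested. Lyz2 measured 6.43, 9.9, 10.6, 9.88 and 11.3 CPM in the WT/WT mice and 16.2, 23.4, 18.6, 13.3 and 16.2 CPM in the 304Q/304Q mice. Lyz2, the lysozyme of macrophages and microglia, was higher in each 304Q/304Q mouse than in any WT/WT mouse (log2 fold change 0.86, SE 0.17, adjusted p = 0.00113). Gpnmb, a glycoprotein of phagocytic cells (log2 fold change 0.8, SE 0.21, adjusted p = 0.0137), and Cd68, a lysosomal protein of the same cells (log2 fold change 0.73, SE 0.17, adjusted p = 0.00473), were also without overlap, at 7.28 to 11.8 and 8.61 to 12.7 CPM in 304Q/304Q mice. Cd68 lost its call in edgeR with surrogate variables (log2 fold change 0.61 to 0.84, adjusted p = 0.000499 to 0.0686), where the list held 2 DEGs. The median of the list was 0.08 and its other 11 members were not called. Cd74, the chaperone of class II antigen presentation, was the 1 DEG of 6 antigen presentation genes (log2 fold change 0.73, SE 0.22, adjusted p = 0.026). Its groups overlapped and its call was lost without WT/WT replicate 1, 3 or 5 or 304Q/304Q replicate 3 and, separately, in edgeR with surrogate variables (log2 fold change 0.6 to 0.96, adjusted p = 0.00331 to 0.0842). No DEG was found among 10 genes of homeostatic microglia (median 0.15), 14 interferon-responsive genes (−0.1) and 6 complement genes (0.16), of which C1qa passed the adjusted p alone (0.33, adjusted p = 0.0449). Without WT/WT replicate 1 and 304Q/304Q replicate 5 the activated microglia list held 3 higher DEGs and antigen presentation held none.

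Among the genes that fell, several encode myelin proteins. Of 24 tested genes of myelinating oligodendrocytes, which make the myelin sheaths, 23 had a lower value in 304Q/304Q mice, 10 of them at an adjusted p of at most 0.05, and 6 were lower DEGs (median log2 fold change −0.33; 50.8% of all genes tested were lower). Mobp measured 772, 683, 833, 773 and 799 CPM in the WT/WT mice and 449, 486, 500.2, 391 and 387 CPM in the 304Q/304Q mice. The highest 304Q/304Q value of Mobp, a protein of compact myelin, thus lay far under the lowest WT/WT value (log2 fold change −0.8, SE 0.066, adjusted p = 1.42e-08). Klk6 measured 16.7, 17.6, 24, 18.9 and 20.5 CPM in the WT/WT mice and 9.19, 12.3, 10.1, 8.51 and 9.53 CPM in the 304Q/304Q mice. Klk6, a protease secreted by mature oligodendrocytes, was about as well separated (log2 fold change −0.98, SE 0.15, adjusted p = 8.7e-05). Further calls were Hapln2, a linker of the matrix at nodes of Ranvier (−0.65, adjusted p = 9.43e-05), Fa2h, which hydroxylates the fatty acids of myelin lipids (−0.64, adjusted p = 1.67e-05), and Mal, a proteolipid of myelin (−0.61, adjusted p = 2.74e-07). Mbp, myelin basic protein, passed the adjusted p without the fold threshold (log2 fold change −0.43, SE 0.076, adjusted p = 0.000436), at 3064 ± 198 CPM in WT/WT and 2279.6 ± 358 CPM in 304Q/304Q mice (SD, n = 5).

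The summed level of the myelin list was 6041 to 6820.4 CPM in WT/WT and 4054 to 5491 CPM in 304Q/304Q mice, without overlap. Fewer cells of a type and less RNA per cell cannot be told apart in these bulk samples, here or for the cell types below. No DEG was found among 9 transcription factors of the oligodendrocyte lineage, whose median was −0.06 and of which Myrf, the driver of myelin genes, passed the adjusted p alone (−0.21, adjusted p = 0.0397). There was likewise none among 9 genes of oligodendrocyte precursors and newly formed oligodendrocytes (median 0.06), 10 genes of nodes of Ranvier (−0.02) and 21 of cholesterol synthesis (−0.02). Fth1, the heavy chain of the iron store ferritin, which oligodendrocytes hold in large amounts, had 1124 ± 118 CPM in WT/WT and 755 ± 58.5 CPM in 304Q/304Q mice (mean ± SD, n = 5; log2 fold change −0.57, SE 0.086, adjusted p = 5.44e-05), with no overlap. It was the 1 DEG of 9 iron genes and fell short of the fold threshold with surrogate variables (log2 fold change −0.65 to −0.44, adjusted p = 4.81e-12 to 0.000334). Without WT/WT replicate 1 and 304Q/304Q replicate 5 the myelin list held 5 lower DEGs and with the GC trend removed 8.

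Many genes of Purkinje cells were lower by small amounts. Of the 21 tested, 18 were lower, 17 met the adjusted p, all in the lower direction, and 5 were DEGs (median −0.36). Over all genes tested 50.8% were lower, 12.8% met the adjusted p in either direction and 1.83% were lower DEGs. Pcp2 measured 372, 459, 526, 381 and 460.2 CPM in the WT/WT mice and 323, 313, 301, 257 and 266 CPM in the 304Q/304Q mice. Pcp2, a Purkinje cell protein that acts on G proteins, had no overlap between the groups (log2 fold change −0.59, SE 0.087, adjusted p = 4.29e-05). Pcp4 measured 44.5, 57.2, 63.4, 55 and 59.5 CPM in the WT/WT mice and 37.4, 32.9, 31, 33.8 and 42.3 CPM in the 304Q/304Q mice. Pcp4, a small regulator of calmodulin, was again lower in all 5 mice (log2 fold change −0.65, SE 0.11, adjusted p = 0.000273). Plcb3, a phospholipase behind metabotropic receptors (−0.58, adjusted p = 9.61e-06), Homer3, a scaffold that ties those receptors to calcium stores (−0.52, adjusted p = 1.25e-05), and Skor2, a corepressor of Purkinje cell development (−0.5, adjusted p = 0.00237), were the other DEGs. Calb1, the calcium buffer by which these cells are stained, fell by less than the fold threshold (log2 fold change −0.26, SE 0.052, adjusted p = 0.00162), with 675 to 747 CPM in WT/WT and 540.2 to 642 CPM in 304Q/304Q mice and no overlap. The summed level of the list was 8992 to 9909 CPM in WT/WT and 7446 to 8039 CPM in 304Q/304Q mice.

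Several of these calls lay close to the fold threshold. Skor2 was called in 7 of 22 other analyses and lost its call without WT/WT replicate 2, 3 or 4 or 304Q/304Q replicate 2 or 5, with the GC trend removed and with surrogate variables (log2 fold change −0.55 to −0.38, adjusted p = 0.000336 to 0.0179). Homer3 lost its call without WT/WT replicate 3, with the GC trend removed and with surrogate variables (log2 fold change −0.57 to −0.43, adjusted p = 1.75e-10 to 0.000217), and Pcp2 with surrogate variables (log2 fold change −0.64 to −0.46, adjusted p = 4.64e-09 to 0.000475). With the GC trend removed the Purkinje list held 3 lower DEGs, and without WT/WT replicate 1 and 304Q/304Q replicate 5 it held 6. Among 15 genes of inhibitory interneurons all had a lower value (median −0.24) and 6 met the adjusted p (12.8% of all genes did), with Gad1, which makes GABA, at −0.23, adjusted p = 7.82e-05 and Pvalb, a calcium buffer, at −0.45, adjusted p = 4.34e-06. Grm2, a metabotropic glutamate receptor of Golgi cells, was their 1 DEG (log2 fold change −0.52, SE 0.087, adjusted p = 0.000203), which was lost without WT/WT replicate 3 or 304Q/304Q replicate 1 or 2, with the GC trend removed and with surrogate variables (log2 fold change −0.58 to −0.45, adjusted p = 1.02e-06 to 0.00268). Pvalb and Gad1 are expressed by Purkinje cells too. None of 15 granule cell genes was a DEG, and their median was −0.07, with a summed level of 8205 to 8764 CPM in WT/WT and 7956 to 8843 CPM in 304Q/304Q mice.

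Of the glutamate receptor genes, 2 of 7 metabotropic and 1 of 17 ionotropic ones were lower DEGs, against 1.83% of all genes tested. A value below 0 was found for 5 of the metabotropic and 10 of the ionotropic genes, against 50.8% of all genes tested. Grm4 measured 538, 583, 589.9, 651 and 557 CPM in the WT/WT mice and 279.6, 325, 350.4, 314 and 293 CPM in the 304Q/304Q mice. Grm4, the presynaptic receptor of parallel fibres, thus fell in every 304Q/304Q mouse beneath the WT/WT range (log2 fold change −0.9, SE 0.076, adjusted p = 1.64e-08). Grik4, a kainate receptor subunit (−0.51, adjusted p = 0.000365), was the ionotropic DEG and lost its call without WT/WT replicate 3 or 5 or 304Q/304Q replicate 1 or 4, with the GC trend removed and in DESeq2 with surrogate variables (log2 fold change −0.57 to −0.44, adjusted p = 9.8e-06 to 0.00532). Eomes, the transcription factor of unipolar brush cells, was very variable in WT/WT mice, at 78, 21.7, 63.2, 23.7 and 69.8 CPM in WT/WT and 9.19, 10.4, 12.3, 11.9 and 17.4 CPM in 304Q/304Q mice (log2 fold change −2.06, SE 0.4, adjusted p = 0.00105). All 304Q/304Q values lay under the WT/WT values, and the other 3 tested genes of these cells were not DEGs. None of 25 genes of synaptic vesicles and of 11 GABA-A receptor genes was a DEG, with medians of 0.02 and 0.1. Of 9 neurofilament and microtubule genes none was a DEG, Nefh, the heavy neurofilament, coming closest (−0.48, adjusted p = 0.000219).

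**Figure D3:**
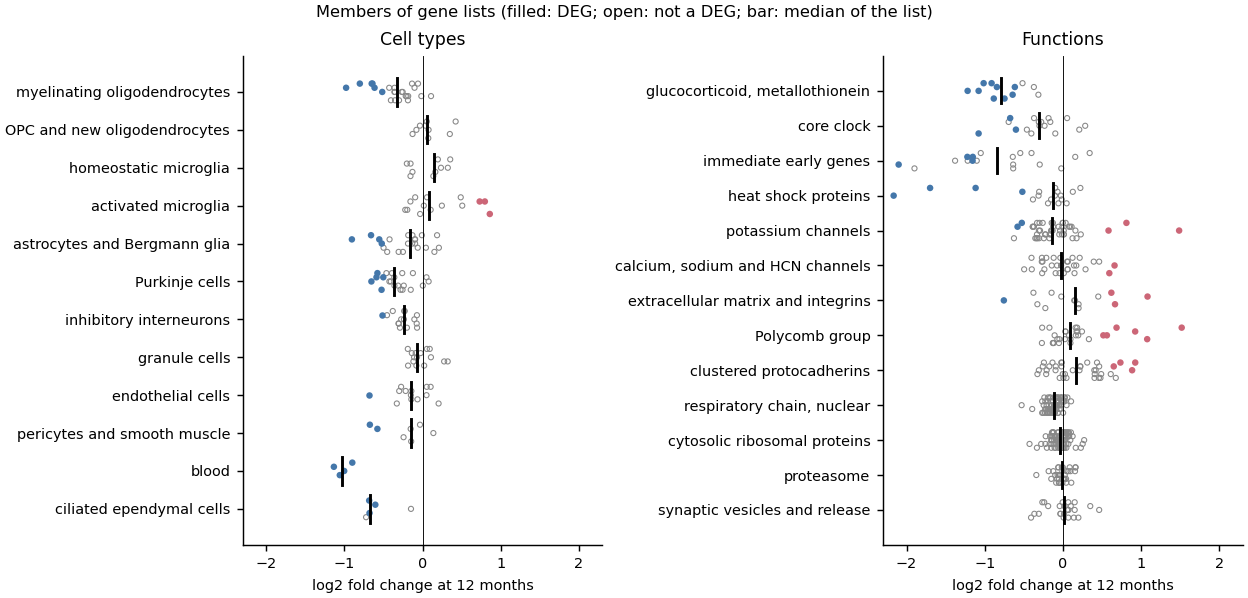
Log2 fold change at 12 months of each tested member of 12 cell type lists (left) and 13 function lists (right); filled points are DEGs (red higher, blue lower), open points are not, and the black bar is the list's median. The Purkinje cell, myelin and glucocorticoid lists lie mostly under 0 (medians −0.36, −0.33 and −0.80), while granule cell, ribosomal and proteasome genes lie around 0.

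Genes of astrocytes and Bergmann glia fell in part. Of 22 tested, 18 were lower, 10 met the adjusted p and 4 were lower DEGs, with none higher (median −0.16). The shares over all genes tested were 50.8% lower, 12.8% at the adjusted p and 1.83% lower DEGs. Agt measured 98.9, 98.2, 106, 117 and 104 CPM in the WT/WT mice and 51.7, 63, 58.4, 56.4 and 51.2 CPM in the 304Q/304Q mice. Agt, angiotensinogen, which astrocytes make in the brain, lay under the WT/WT range in all 304Q/304Q mice (log2 fold change −0.9, SE 0.088, adjusted p = 2.21e-07). Gdf10 measured 245, 267, 276, 245 and 249 CPM in the WT/WT mice and 163, 162, 154, 167 and 167 CPM in the 304Q/304Q mice. Gdf10, a growth factor of Bergmann glia, was measured within narrow ranges in both groups (log2 fold change −0.66, SE 0.065, adjusted p = 2.36e-07). Gjb6, a connexin that couples astrocytes (−0.55, adjusted p = 0.000215), and Aldh1l1, a folate enzyme used as a pan-astrocyte marker (−0.52, adjusted p = 7.78e-06), were the other DEGs. Gjb6 missed the fold threshold in DESeq2 with surrogate variables and without WT/WT replicate 1 and 304Q/304Q replicate 5 together (log2 fold change −0.61 to −0.49, adjusted p = 6.58e-07 to 0.00194). Aldh1l1 lost its call without 304Q/304Q replicate 1 and, separately, with the GC trend removed (log2 fold change −0.6 to −0.46, adjusted p = 4.42e-11 to 5.18e-05). The summed level of the list was 10322 to 10668 CPM in WT/WT and 8481 to 8926 CPM in 304Q/304Q mice, and without WT/WT replicate 1 and 304Q/304Q replicate 5 it held 4 lower DEGs.

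The list with the highest share of called genes outside blood and muscle was that of glucocorticoid-responsive genes and metallothioneins. All 12 tested were lower, 11 met the adjusted p and 9 were lower DEGs (median −0.8). The shares over all genes tested were 50.8%, 12.8% and 1.83%. Metallothioneins bind zinc and copper, and their genes answer to metals and to glucocorticoids. The promoters of the 3 that were tested are shown, as RefSeq gives them for the plus strand of GRCm38.p6, from 250 bases before to 50 after the start, because 2 of them were DEGs. Capitals mark TGCGCNC on either strand, a form of the core of the metal response element, which 15.4% of all 32851 promoters hold. It was found 1 time for Mt1 (chr8:94178839-94179138), 2 times for Mt2 (chr8:94172368-94172667) and not in this window for Mt3 (chr8:94152357-94152656). Only this spelling was searched. The spelling with A for the second G, TGCACNC, stands unmarked in all 3 windows, so the marks do not set Mt3 apart from the other 2.
Mt1: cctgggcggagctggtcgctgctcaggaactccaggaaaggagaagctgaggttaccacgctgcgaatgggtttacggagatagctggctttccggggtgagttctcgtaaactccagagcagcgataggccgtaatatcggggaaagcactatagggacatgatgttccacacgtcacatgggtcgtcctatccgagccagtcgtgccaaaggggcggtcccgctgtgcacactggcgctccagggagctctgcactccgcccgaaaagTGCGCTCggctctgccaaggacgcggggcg
Mt2: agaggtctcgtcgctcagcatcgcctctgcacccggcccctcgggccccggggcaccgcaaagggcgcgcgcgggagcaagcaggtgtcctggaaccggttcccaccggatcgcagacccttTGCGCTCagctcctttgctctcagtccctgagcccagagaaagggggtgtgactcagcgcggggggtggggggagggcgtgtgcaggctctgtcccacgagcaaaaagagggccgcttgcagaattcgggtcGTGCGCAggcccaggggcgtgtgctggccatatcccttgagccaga
Mt3: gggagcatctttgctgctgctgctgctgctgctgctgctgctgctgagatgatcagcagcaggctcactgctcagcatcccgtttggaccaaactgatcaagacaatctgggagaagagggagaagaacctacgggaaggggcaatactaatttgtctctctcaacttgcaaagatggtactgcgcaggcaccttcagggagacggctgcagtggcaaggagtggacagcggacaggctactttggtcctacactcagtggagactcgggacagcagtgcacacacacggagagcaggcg

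Mt1 measured 269, 250.1, 341, 265 and 279 CPM in the WT/WT mice and 173, 147, 185, 166 and 165 CPM in the 304Q/304Q mice. Mt1 was thus lower in each 304Q/304Q mouse than in any WT/WT mouse (log2 fold change −0.75, SE 0.073, adjusted p = 2.36e-07). Mt2, the neighbouring gene, had 14.8 ± 4.36 CPM in WT/WT and 7.33 ± 1.15 CPM in 304Q/304Q mice (mean ± SD, n = 5; log2 fold change −1.01, SE 0.19, adjusted p = 0.000635), and Mt3, the metallothionein of neurons and astrocytes, passed the adjusted p without the fold threshold (log2 fold change −0.37, SE 0.075, adjusted p = 0.00171). Per1 measured 239.7, 170.5, 285, 168 and 275 CPM in the WT/WT mice and 97.1, 96.9, 91.8, 97.3 and 155 CPM in the 304Q/304Q mice. Per1, a repressor of the circadian clock that glucocorticoids induce, was high in WT/WT replicates 1, 3 and 5 and, among the 304Q/304Q mice, highest in replicate 5, yet the groups did not overlap (log2 fold change −1.08, SE 0.22, adjusted p = 0.00187). Tsc22d3, a mediator of glucocorticoid action (log2 fold change −0.61, SE 0.14, adjusted p = 0.00541), and Cdkn1a, an inhibitor of the cell cycle (log2 fold change −0.88, SE 0.16, adjusted p = 0.00043), fell too. Tsc22d3 fell short of the fold threshold in analyses with surrogate variables (log2 fold change −0.69 to −0.48, adjusted p = 0.000407 to 0.0241). Zbtb16, a transcription factor induced by glucocorticoids, measured 18.3, 8.3, 14.9, 4.52 and 8.91 CPM in WT/WT and 5.07, 4.13, 3.25, 6.36 and 4.59 CPM in 304Q/304Q mice (log2 fold change −1.22, SE 0.41, adjusted p = 0.0497), and was called in only 5 of 21 other analyses. It lost its call without WT/WT replicate 1, 2, 3 or 5 or 304Q/304Q replicate 1, 2, 3, 4 or 5. Separately, it lost it with the GC trend removed, with a replicate block and in DESeq2 without surrogate variables (over all of the analyses log2 fold change −1.45 to −0.95, adjusted p = 0.00478 to 0.138). The summed level of the list was 811 to 1166 CPM in WT/WT and 555 to 619.9 CPM in 304Q/304Q mice, and 7 of the 12 were DEGs without WT/WT replicate 1 and 304Q/304Q replicate 5, and with the GC trend removed.

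Some clock genes fell as well. Of 17 tested, 14 were lower, 7 met the adjusted p (12.8% of all genes did) and 3 were DEGs (median −0.3). Beside Per1 these were Nr1d1, a nuclear receptor that represses the positive arm of the clock (log2 fold change −0.6, SE 0.055, adjusted p = 8.15e-08), and Dbp, an output transcription factor (log2 fold change −0.67, SE 0.096, adjusted p = 2.96e-05). Nr1d1 measured 331, 311, 342, 277 and 299 CPM in the WT/WT mice and 215, 209, 204, 201 and 200.3 CPM in the 304Q/304Q mice. The 304Q/304Q mice lay close together and far from the WT/WT mice. The hour at which the mice were killed is not given in the sources used here, and its part was not tested. One of the 2 RefSeq promoters of Per1 on the plus strand (chr11:69098699-69098998, GRCm38.p6) is shown with CACGTG, the E-box that clock activators bind, in capitals. It was picked because it holds the E-box. Of all promoters 7.15% hold it. Of the 15 clock genes with a listed promoter, 5 hold it in at least 1 of their promoters, Per1 among them and Nr1d1 not. A share of promoters and a count of genes with several promoters are unlike measures.
Per1: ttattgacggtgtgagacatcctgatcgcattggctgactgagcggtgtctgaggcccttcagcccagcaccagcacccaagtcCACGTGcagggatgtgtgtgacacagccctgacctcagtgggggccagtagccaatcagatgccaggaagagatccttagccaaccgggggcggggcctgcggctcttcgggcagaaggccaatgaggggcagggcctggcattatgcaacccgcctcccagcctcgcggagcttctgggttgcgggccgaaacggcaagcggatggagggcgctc

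Immediate early genes, which neurons switch on within minutes of activity, had lower values with a wide spread. Of 18 tested, 16 were lower and 4 were lower DEGs (median −0.85), against 50.8% and 1.83% of all genes tested. Nr4a2 measured 77.2, 64.6, 92.9, 51.1 and 115 CPM in the WT/WT mice and 17.9, 8.81, 7.83, 6.67 and 50.7 CPM in the 304Q/304Q mice. Replicate 5 of the 304Q/304Q mice reached almost the lowest WT/WT value of Nr4a2, an orphan nuclear receptor, and the other 4 lay far lower (log2 fold change −2.1, SE 0.54, adjusted p = 0.0106). Klf2 (−1.22, adjusted p = 0.0191) and Klf4 (−1.16, adjusted p = 0.0167), zinc-finger transcription factors, and Dusp1, a phosphatase of MAP kinases (−1.15, adjusted p = 0.0366), were the other DEGs. Fos, part of the transcription factor AP-1, measured 71.3, 124, 104, 93.7 and 117 CPM in WT/WT and 73, 6.62, 29.9, 7.51 and 128 CPM in 304Q/304Q mice and was not called (log2 fold change −1.05, SE 0.61, adjusted p = 0.272). Replicates 2 and 4 of the 304Q/304Q mice were lowest for Fos and Dusp1, and the summed level of the list was 320.3 and 326 CPM in them, 719, 479 and 869 CPM in replicates 1, 3 and 5, and 735 to 985 CPM in WT/WT mice. Klf2 lost its call without WT/WT replicate 3 or 5 or 304Q/304Q replicate 2 or 4 and, separately, with surrogate variables (log2 fold change −1.52 to −0.38, adjusted p = 0.000563 to 0.375). Klf4 lost it without WT/WT replicate 3 or 5 and, separately, with surrogate variables (log2 fold change −1.34 to −0.6, adjusted p = 0.00334 to 0.15). Dusp1 lost it without WT/WT replicate 2, 3, 4 or 5 or 304Q/304Q replicate 2, 3 or 4 and, separately, with surrogate variables (log2 fold change −1.37 to −0.32, adjusted p = 0.00303 to 0.644). The count and the median depended on the analysis: in edgeR with surrogate variables 2 were lower and 1 was a higher DEG (median −0.15), while without WT/WT replicate 1 and 304Q/304Q replicate 5 together 12 were lower DEGs (median −1.31), and without 304Q/304Q replicate 5 alone 10 were. Arc, a postsynaptic protein named after its values were seen, met the adjusted p in the higher direction without overlap and stayed under the fold threshold (log2 fold change 0.34, SE 0.097, adjusted p = 0.02).

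Several chaperone genes fell. Of 18 heat shock proteins and cochaperones 15 had a lower value and 4 were lower DEGs (median −0.13), against 50.8% and 1.83% of all genes tested. Hspa1b measured 24, 3.97, 6.84, 2.96 and 8.67 CPM in WT/WT and 1.81, 1.87, 1.85, 1.07 and 3.6 CPM in 304Q/304Q mice (log2 fold change −2.17, SE 0.45, adjusted p = 0.002), and its near-identical copy Hspa1a 18.7, 1.67, 5.11, 2.4 and 5.94 CPM in WT/WT and 1.45, 1.56, 2.2, 2.07 and 3.03 CPM in 304Q/304Q mice (log2 fold change −1.7, SE 0.44, adjusted p = 0.0113), so that WT/WT replicate 1 was by far the highest for both. Without it Hspa1a was no longer called (log2 fold change −1.95 to −0.86, adjusted p = 0.00185 to 0.0535), and Hspa1b and Hspb1 were not in DESeq2 with surrogate variables (for Hspa1b log2 fold change −2.49 to −1.44, adjusted p = 0.000117 to 0.0824). The list held 2 lower DEGs without WT/WT replicate 1, and 3 without both it and 304Q/304Q replicate 5. Hspb1, a small heat shock protein (−1.12, adjusted p = 0.00753), and Bag3, its cochaperone (−0.52, adjusted p = 0.00435), were the others, of which Bag3 was lost without WT/WT replicate 1 or 5 or 304Q/304Q replicate 1 or 3, with the GC trend removed and with surrogate variables (log2 fold change −0.6 to −0.41, adjusted p = 0.000426 to 0.0258). In the unfolded protein response, Hspa5, the main chaperone of the endoplasmic reticulum (−0.59, adjusted p = 0.0138), and Sdf2l1 (−1.04, adjusted p = 0.042) were 2 DEGs of 19 genes. Hspa5 was again highest in WT/WT replicate 1 and lost its call without it and with surrogate variables (log2 fold change −0.68 to −0.42, adjusted p = 0.00144 to 0.11). Sdf2l1 lost its call without WT/WT replicate 1, 3 or 5 or 304Q/304Q replicate 2, 3, 4 or 5, with the GC trend removed and with surrogate variables (log2 fold change −1.23 to −0.67, adjusted p = 0.0154 to 0.373). Without WT/WT replicate 1 and 304Q/304Q replicate 5 together, none of the 19 genes was a DEG. No DEG was found among 35 proteasome genes (median −0.01), 20 autophagy genes (−0.04), 25 lysosomal genes (0.01), 17 genes of antioxidant defence (−0.07) and 89 ribosomal protein genes (−0.04).

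No subunit gene of the respiratory chain was called. Of 80 nuclear genes 72 had a lower value (median −0.11), and of 10 mitochondrial genes all had a higher value (median 0.29). The mitochondrial median was 0.06 with the GC trend removed and 0.01 in edgeR with surrogate variables, with no DEG in either. Without WT/WT replicate 1 and 304Q/304Q replicate 5 together it was 0.53 and 6 of the 10 were higher DEGs, so that the value and the call depended on the analysis.

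**Figure D4:**
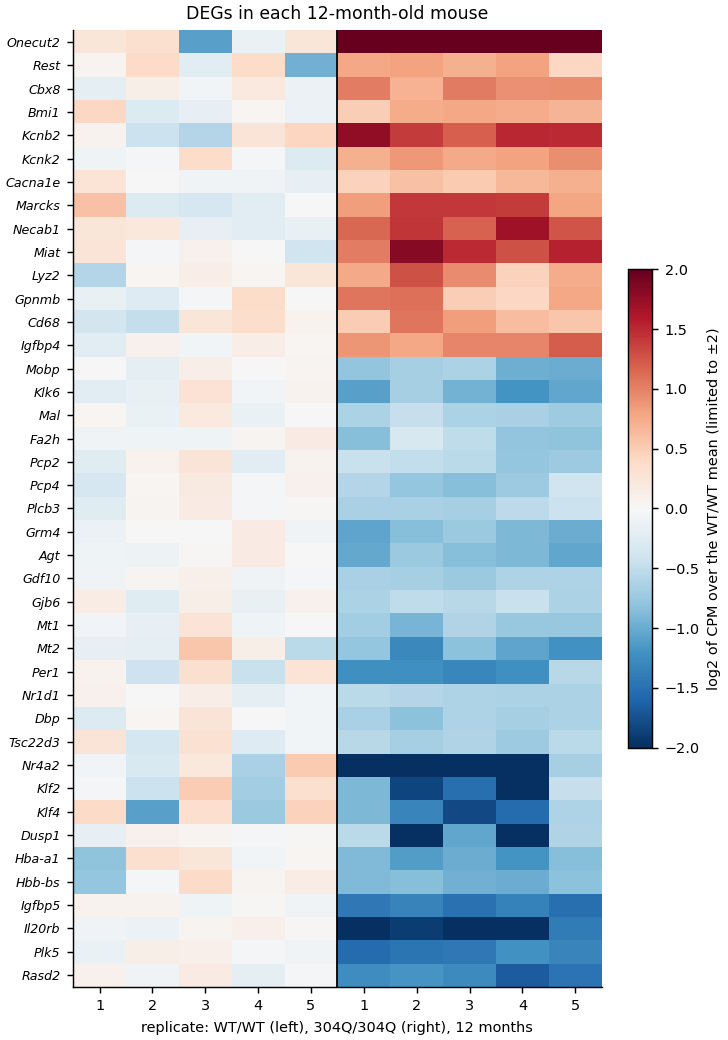
Log2 of CPM over the mean of the WT/WT mice for 41 DEGs (rows) in the 5 WT/WT (left) and 5 304Q/304Q mice (right) of 12 months, limited to ±2. Igfbp5, Plk5 and Nr1d1 are even across the 304Q/304Q mice, while Nr4a2, Klf2 and Dusp1 differ widely among them, replicates 1 and 5 being nearest to the WT/WT mice for Dusp1.

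Some genes of vessels, blood and the ventricle lining fell. All 4 tested hemoglobin genes fell, Hbb-bs measuring 81.7, 135, 182, 145 and 154 CPM in WT/WT and 75.3, 77.6, 71.6, 70.3 and 79.2 CPM in 304Q/304Q mice (log2 fold change −0.9, SE 0.21, adjusted p = 0.00513). WT/WT replicate 1 was close to the 304Q/304Q mice, and Hbb-bt (−1.13, adjusted p = 0.0137) overlapped, whereas Hba-a1 (−1.0, adjusted p = 0.00249) and Hba-a2 (−1.06, adjusted p = 0.006) did not. These are pairs of near-identical genes whose reads cannot be assigned with certainty, and all 4 lost their call in DESeq2 with surrogate variables, Hba-a2 and Hbb-bt in edgeR with them too (for Hbb-bs log2 fold change −1.06 to −0.76, adjusted p = 0.000233 to 0.075). Of 13 endothelial genes Mfsd2a, the lipid transporter of the blood-brain barrier, was the 1 DEG (log2 fold change −0.68, SE 0.14, adjusted p = 0.00239), and of 7 genes of pericytes and smooth muscle Myh11 (−0.67, adjusted p = 0.0213) and Acta2 (−0.58, adjusted p = 0.00532), both contractile proteins of arteries, were called with overlap. Over all genes tested 1.83% were lower DEGs. Myh11 lost its call without WT/WT replicate 3 or 304Q/304Q replicate 1 (log2 fold change −1.2 to −0.52, adjusted p = 5.04e-07 to 0.0695) and Acta2 without 304Q/304Q replicate 5 (log2 fold change −0.74 to −0.48, adjusted p = 4.38e-05 to 0.0222). In a list of 5 tested genes of ciliated ependymal cells, chosen after values had been seen, Foxj1, the master regulator of motile cilia (−0.68, adjusted p = 0.0265), and the cilium genes Dnah11 (−0.6, adjusted p = 0.00382) and Cfap74 (−0.68, adjusted p = 7.42e-05) were lower DEGs. Dnah11 lost its call with surrogate variables (log2 fold change −0.7 to −0.4, adjusted p = 0.000349 to 0.0699). Foxj1 lost it without WT/WT replicate 2 or 5 or 304Q/304Q replicate 4 or 5 and, separately, with surrogate variables (log2 fold change −0.79 to −0.38, adjusted p = 0.00774 to 0.202).

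Other lists served to check for tissue from outside the cerebellum. Myh4, Ckm, Tnnt3 and Acta1 of skeletal muscle were all called higher, yet Myh4 was listed at 73 CPM in 304Q/304Q replicate 5 and at most at 0.0767 CPM in the other 9 mice, and without that replicate none of the 4 was called (Ckm −1.71, adjusted p = 0.473). Without it and WT/WT replicate 1, Tnnt3 was called lower (−1.93, adjusted p = 0.0435). Ttr of the choroid plexus ran from 6.35 to 2009 CPM in WT/WT and from 3.32 to 1429 CPM in 304Q/304Q mice and was not called (−0.28, adjusted p = 0.925). In the list of brain tissue next to the cerebellum, of which 5 genes were tested, Th (−0.76, adjusted p = 0.000588) and Ppp1r1b (−0.7, adjusted p = 6.11e-07), a dopamine-synthesis enzyme and a phosphatase inhibitor, were lower DEGs, with summed levels of 226 to 279 CPM in WT/WT and 179 to 217 CPM in 304Q/304Q mice over 16 genes. Ppp1r1b alone made up 148 to 186 CPM in WT/WT and 93.4 to 120 CPM in 304Q/304Q mice. The other 3 tested genes were not DEGs. Whether the groups differed in adjacent tissue was not tested, and the sum does not show it. Hoxb3 of the hindbrain was at or near 0 in all 10 libraries.

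Of the 12 largest falls without overlap, Nr4a2 and Eomes are given above, and the others encode proteins of varied function. Igfbp5 measured 442, 442, 396, 427 and 402 CPM in the WT/WT mice and 157, 168, 149, 166 and 148 CPM in the 304Q/304Q mice. Igfbp5, a binding protein that carries insulin-like growth factors, was thus well separated between the groups (log2 fold change −1.42, SE 0.072, adjusted p = 4.38e-12). Igfbp4 and Igf1 of this system went up, Igfbp4 at 18.7 ± 1.77 CPM in WT/WT and 36.7 ± 4.22 CPM in 304Q/304Q mice (mean ± SD, n = 5; log2 fold change 0.97, SE 0.14, adjusted p = 2.53e-05) and Igf1 with overlap of the groups (log2 fold change 0.71, SE 0.17, adjusted p = 0.00743). Igf1 fell short of the fold threshold with the GC trend removed (log2 fold change 0.49 to 0.86, adjusted p = 0.00129 to 0.0345). Il20rb measured 44.7, 43.4, 48.6, 50.4 and 47.5 CPM in the WT/WT mice and 10.3, 12.6, 11, 11.6 and 17.7 CPM in the 304Q/304Q mice. For Il20rb, a receptor chain for interleukins of the IL-20 family, the 304Q/304Q mean was 27% of the WT/WT mean (log2 fold change −1.89, SE 0.14, adjusted p = 5.83e-09). Plk5, a member of the polo-like family found in brain, had 106 ± 8.32 CPM in WT/WT and 40.7 ± 3.61 CPM in 304Q/304Q mice (mean ± SD, n = 5, log2 fold change −1.39, SE 0.084, adjusted p = 1.09e-10). Dusp5, a nuclear phosphatase of ERK, had 156 ± 14.1 CPM in WT/WT and 51 ± 14.3 CPM in 304Q/304Q mice (log2 fold change −1.61, SE 0.17, adjusted p = 5.93e-07).

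Regulators of Ras and genes of low expression made up the rest. Rasd2, a small GTPase also called Rhes, measured 36.4, 32.5, 38, 30.0 and 33.8 CPM in WT/WT and 14.5, 15, 14.2, 10.8 and 12.2 CPM in 304Q/304Q mice (log2 fold change −1.36, SE 0.1, adjusted p = 5.83e-09). Rasal1, which switches Ras off, measured 9.56, 15.3, 16.7, 13.1 and 13.5 CPM in WT/WT and 4.63, 5.92, 3.96, 3.91 and 3.25 CPM in 304Q/304Q mice (log2 fold change −1.65, SE 0.19, adjusted p = 2.53e-06). They were the 2 DEGs of 11 Ras regulators. The groups did not overlap for Myo15, an unconventional myosin of sensory hair cells (−1.99, adjusted p = 4.64e-06), Mirt1, a noncoding RNA (−1.86, adjusted p = 3.72e-07), Ccdc63 (−1.47, adjusted p = 6.19e-06) and Gm15083 (−1.46, adjusted p = 0.000132), with 1.41 to 2.42, 1.62 to 3.91, 2.34 to 4.2 and 1.15 to 3.18 CPM in 304Q/304Q mice. Of 13 hypoxia genes, Hif3a, which restrains the response to low oxygen (log2 fold change −1.81, SE 0.46, adjusted p = 0.00972), and Car9, an anhydrase of the cell surface (log2 fold change −0.9, SE 0.19, adjusted p = 0.00243), were DEGs, at 15, 13.2, 10.8, 5.51 and 6.88 CPM in WT/WT and 2.03, 1.95, 2.37, 3.76 and 4.45 CPM in 304Q/304Q mice for Hif3a. Gm39465 missed the limit of 50 counts and was not tested, at 5.15 to 7.74 CPM in WT/WT and 0 to 0.282 CPM in 304Q/304Q mice.

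How far these effects belonged to the age of 12 months was tested as the difference between the genotype effects at 12 and at 2 months, with the 5 mice of each genotype at 2 months in the same fit. At 2 months Igfbp5 was the 1 DEG by edgeR's test (6 genes by the adjusted p alone). The effects differed at an adjusted p of at most 0.05 for 232 genes (1.93%), 119 of them among the 372 DEGs, which were chosen for large effects at 12 months. The count was 553 without WT/WT replicate 1 of 12 months and 370 without 304Q/304Q replicate 5 of 2 months. Of 21 Purkinje cell genes, 11 differed, among them Pcp2 by −0.65 (SE 0.12, adjusted p = 0.00425) and Plcb3 by −0.56 (SE 0.11, adjusted p = 0.00425), and the medians of the list were −0.04 at 2 and −0.36 at 12 months. Of 22 astrocyte and Bergmann glia genes 6 differed, among them Agt by −0.85 (SE 0.12, adjusted p = 0.0004) and Gdf10 by −0.59 (SE 0.092, adjusted p = 0.000753). Of 24 myelin genes 3 differed, Mobp by −0.48 (SE 0.093, adjusted p = 0.00512), Hapln2 by −0.63, adjusted p = 0.0179 and Fa2h by −0.46, adjusted p = 0.0486, and the medians were −0.13 and −0.33. None of the immediate early genes and 1 of the 12 glucocorticoid and metallothionein genes, Mt1 (−0.6, adjusted p = 0.0024), differed.

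Of the 119 DEGs that passed, Onecut2 had the largest difference (2.78, SE 0.33, adjusted p = 5.42e-05), its mean ± SD at 2 months being 2.7 ± 1 CPM in WT/WT and 4 ± 0.506 CPM in 304Q/304Q mice (n = 5). Cbx8 (0.73, adjusted p = 0.0031), Bmi1 (0.72, adjusted p = 0.0416) and Asxl3 (1.27, adjusted p = 0.015) differed as well. For Plk5 the difference was −1.02 (SE 0.12, adjusted p = 4.02e-05), for Rasd2 −1.15 (SE 0.14, adjusted p = 6.58e-05) and for Igfbp5, with a log2 fold change of −0.75 at 2 months, −0.67 (SE 0.1, adjusted p = 0.000503). Kcnb2 (0.82, adjusted p = 0.211), Eomes (−1.18, adjusted p = 0.288), Klk6 (−0.58, adjusted p = 0.173) and Car9 (−0.23, adjusted p = 0.69) did not pass.

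**Figure D5:**
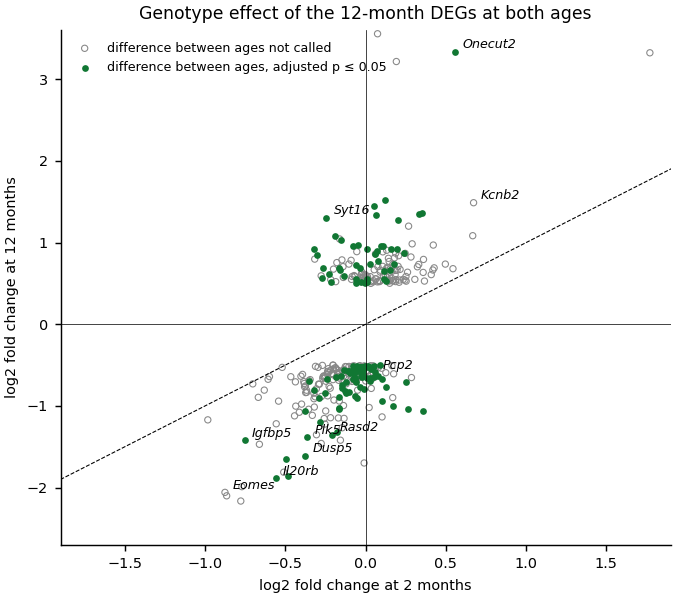
Genotype effect (log2 fold change, 304Q/304Q over WT/WT) at 2 months (horizontal axis) and at 12 months (vertical axis) for the 12-month DEGs other than Myh4 and Ckm, which lie outside the axes; filled points are the genes whose 2 effects differed at an adjusted p of at most 0.05, and on the dashed line both effects are equal. Onecut2 and Syt16 lie high above the line, Igfbp5 and Eomes already lie left of 0.

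The higher and lower DEGs also differed in properties that were not used to call them. The median GC content of the exons was 45.8% for the 152 higher and 54.0% for the 220 lower DEGs, against 49.7% for all genes tested, and the median span of the gene 34356, 16096 and 26368 bases. The GC slope of the libraries moved with the genotype outside WT/WT replicate 1, as given above. When each library was corrected for its own GC trend, 342 genes were DEGs, 141 higher and 201 lower, of which 291 (78.2% of the 372 and 85.1% of the 342) were the same, and the medians of GC content became 49.9% and 52.0% and those of the span 24350 and 15548 bases. Of the higher DEGs 95.4% and of the lower 93.6% were protein-coding genes, against 96.6% of all tested. Several genes named above lie over an annotated gene of the opposite strand (Aldh1l1, Car9, Ccdc63, Cdkn1a, Cfap74, Dbp, Dnah11, Dusp1, Dusp5, Eomes, Grm2, Homer3, Hspa1a, Mirt1, Mt2, Nr1d1, Pcp2, Plcb3 and Ppp1r1b) or of the same strand (Pcp4, Mobp, Miat, Cd74 and Grik4), and whether reads of the partner were counted with them was not tested.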

How the data were processed

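PolyA-selected RNA from the cerebella of 20 male mice was sequenced after TruSeq Stranded mRNA preparation. The deposited values are raw counts per gene, which the authors made, per the labels and the study's methods, with STAR (2.4.5b in the submitters' processing notes) against Ensembl mouse GRCm38 and with Rsubread, 1 library per mouse. The strand setting of the counting and the treatment of reads that match several genes are not given in the sources used here. Nothing in the labels says how mice share litters or batches. The p-values weigh the difference between groups against the spread between mice, estimated over all 20 libraries. They cannot separate genotype from a litter or batch that follows it.

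A gene was kept where its counts averaged 50 or more in the 10 libraries of 12 months (12039 of 29200). Counts were scaled by TMM and fitted with edgeR 4.0.16 (quasi-likelihood, 4 groups, 20 libraries, R 4.3.3), with Benjamini-Hochberg adjustment, and the 12-month effect was compared with the 2-month effect as an interaction. DEGs had an adjusted p up to 0.05 and a log2 fold change of 0.5 or more, up or down. Alternatives were DESeq2 1.42.0, 3 surrogate variables from sva 3.50.0, other filters and scaling, a replicate block and each library left out; removal of GC and length trends and the joint removal of WT/WT replicate 1 and 304Q/304Q replicate 5 were added with the data in view. In counts simulated for the 12-month comparison over 12039 genes, edgeR recovered 194 of 200 genes changed by a log2 fold of 1, with 2 false calls. The simulated counts held no GC trend, hidden factor or odd library, and only 61 of the 372 DEGs reached that fold. These rates therefore do not carry over to the DEGs. Totals of 11385380 to 14305694 counts per library set the precision.

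The members and gene lists were chosen with earlier results of these data known. Some lists hold genes that the study names from these libraries, and the Polycomb, protocadherin and ependymal lists were chosen after values were seen. Genes were named from the 12 largest changes in each direction without overlap between the groups and from the lists: their first 2 members and up to 3 called ones, and others chosen after values were seen. A few items are not reported here.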

Additional observations from a re-analysis of the deposited data

Results flagged for a closer look

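The genotype effect at 12 months differed from that at 2 months for 232 genes by the interaction term of edgeR's fit, and 46 of the genes named above were among them. The difference of the log2 effects (12 months minus 2 months) was above 0 for Onecut2 2.78, Syt16 1.55, Miat 1.40, Asxl3 1.27, A830018L16Rik 1.27, Pcdhb10 1.25, Muc15 1.08, Igsf10 1.02, Igfbp4 1.02, Necab1 1.01, Itgav 0.85, Cacna1e 0.73, Cbx8 0.73 and Bmi1 0.72. It was below 0 for Hba-a2 −1.42, Mirt1 −1.37, Il20rb −1.33, Dusp5 −1.23, Hba-a1 −1.17, Rasal1 −1.16, Rasd2 −1.15, Plk5 −1.02, Th −0.89, Agt −0.85, Dbp −0.78, Pcp4 −0.68, Igfbp5 −0.67, Pcp2 −0.65, Ppp1r1b −0.64, Hapln2 −0.63, Grm4 −0.61, Mt1 −0.60, Gdf10 −0.59, Skor2 −0.59, Plcb3 −0.56, Grik4 −0.56, Grm2 −0.53, Nr1d1 −0.50, Kcnip1 −0.50, Kcng4 −0.49, Aldh1l1 −0.49, Homer3 −0.48, Mobp −0.48, Fa2h −0.46, Nefh −0.46 and Pvalb −0.46.

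A single mouse lay far from the other 4 of its group, by Dixon's criterion at the 95% level, in 24 of 224 groups of values (112 genes in 2 groups), where chance marks about 1 in 20. In 304Q/304Q replicate 5 these were Acta1 (highest at 53 CPM), Ckm (highest at 35.4 CPM), Myh4 (highest at 73.0 CPM), Nr4a2 (highest at 50.7 CPM), Per1 (highest at 155 CPM), Rest (lowest at 8.26 CPM) and Tnnt3 (highest at 41.8 CPM). In WT/WT replicate 1 they were Hspa1a (highest at 18.7 CPM), Hspa1b (highest at 24.0 CPM), Kcnj3 (highest at 129 CPM), Muc15 (highest at 3.21 CPM) and Rnf2 (highest at 29.8 CPM). The others were Arc in WT/WT replicate 5 (lowest at 33.3 CPM), C1qa in WT/WT replicate 2 (lowest at 30.6 CPM), Car9 in 304Q/304Q replicate 4 (highest at 5.06 CPM), Car9 in WT/WT replicate 5 (lowest at 6.17 CPM), Cd74 in 304Q/304Q replicate 3 (highest at 12.2 CPM), Ckm in WT/WT replicate 2 (highest at 0.488 CPM), Dbp in 304Q/304Q replicate 2 (lowest at 39.2 CPM), Gad1 in WT/WT replicate 2 (lowest at 535 CPM), Hapln2 in 304Q/304Q replicate 4 (lowest at 15.3 CPM), Kcnip1 in WT/WT replicate 3 (highest at 98.3 CPM), Mal in 304Q/304Q replicate 2 (highest at 95.3 CPM) and Th in WT/WT replicate 2 (highest at 23.4 CPM).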

How the results depend on the processing

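The count of 372 DEGs became 643 without WT/WT replicate 1 and 304Q/304Q replicate 5 together and 1541 by the adjusted p alone, and ran from 294 to 534 with single libraries left out. Higher DEGs numbered 361 and 640 under the same 2 changes and 121 to 272 with single libraries left out. Lower DEGs numbered 901 by the adjusted p alone and 173 to 262 with single libraries left out. Effects that differed between ages, 232 in the analysis reported, numbered 372 in DESeq2 with surrogate variables, 394 in DESeq2, 754 without those 2 libraries, and 159 to 553 with single libraries left out. DESeq2 with surrogate variables shared 224 DEGs with the analysis reported (60.2% of the 372).

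Same-numbered mice of the 2 genotypes had r from −0.2 to 0.0754 between their deviations, and differently numbered mice from −0.184 to 0.287. These values cannot tell whether the numbers pair the mice, as litters and batches are not given and single odd libraries weigh on them. With the replicate number as a block there were 364 DEGs, 146 higher and 218 lower, and 199 differences between ages.

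Some values changed sign. Fos became 0.11 in DESeq2 and 0.03 in edgeR with surrogate variables, and Myh4 −7.61 in the latter. Without the 2 libraries Acta1 became −0.01, Ckm −1.85 and Tnnt3 −1.93. Ckm was −0.54 and −1.10 and Tnnt3 −0.14 (DESeq2 alone) with surrogate variables, and without 304Q/304Q replicate 5 they were −1.71 and −1.73, the range with single libraries left out reaching 6.79 and 3.64. Ttr became 1.08 with surrogate variables in both tools and ran from −1.0 to 0.72 with single libraries left out. The cause was not tested. Of 2165 values for 100 named DEGs, 1951 kept direction and call, 205 kept the direction only and 9 reversed.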
